A study of Mus musculus with 6 samples.

Results

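Protein tyrosine phosphatases and dual-specificity phosphatases were followed in bulk RNA sequencing of regulatory T cells (Tregs) sorted from mouse spleen. The members were the rows of the deposited table whose symbols begin with Dusp or Ptpn and a number, or with Ptpr and a letter, and whose mean over the 6 libraries was at least 10 normalized counts. They came to 38 of the 44 rows with such symbols, among 15944 genes in all. The symbol rule also takes in Ptprcap, which encodes a protein associated with CD45 and is not a phosphatase. The first group was RORγt+ Tregs, CD3+CD4+ cells positive for a red reporter of Foxp3 and for a green reporter of the transcription factor RORγt. The second was CCR6+RORγt- Tregs, positive for the Foxp3 reporter, negative for the RORγt reporter and stained for the chemokine receptor CCR6. Both groups came from C57BL/6 mice, were enriched for CD4+ cells by magnetic sorting before flow sorting, and held 3 libraries each. The labels give no animal age and do not tie libraries to animals, and p-values therefore cover the variation from library to library alone, part or all of which may be technical.

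Values are normalized counts, and 1 read was worth about 0.82 to 1.24 of them, so that the libraries held some 9200000 to 14500000 reads each. RORγt+ replicate 3 stood apart. It held the fewest reads, about 9200000, and had 1247 genes at 0, where the remaining 5 libraries had 438 to 638 genes at 0. It correlated with them at 0.932 to 0.939 (log2 values), while they correlated with one another at 0.947 to 0.967. Values without it are given beside many of the members, but not all that it moved. The Treg genes Foxp3 and Il2ra were abundant in both sorts, Il2ra at 8239 ± 1291 normalized counts in RORγt+ Tregs and 6112.5 ± 437 in CCR6+RORγt- Tregs (SD, n = 3 each). Summed over the 9 measured of 11 myeloid markers, the libraries held 789, 818 and 1070.2 normalized counts in RORγt+ Tregs, and 654, 679 and 601 in CCR6+RORγt- Tregs. The groups did not overlap there, and Cst3 made up most of the sum. The 9 B cell markers summed to 6677 to 10076 in RORγt+ Tregs and 7958 to 9631 in CCR6+RORγt- Tregs. The 6 NK and CD8 markers summed to 187 to 248 in RORγt+ Tregs and 163 to 270.4 in CCR6+RORγt- Tregs, and the 4 measured of 5 γδ T cell markers to 148 to 178 in RORγt+ Tregs and 87.6 to 145 in CCR6+RORγt- Tregs. The 5 measured of 7 red cell and platelet genes summed to 198 to 1219 in RORγt+ Tregs and 75.7 to 6159 in CCR6+RORγt- Tregs. Cd163l1, a γδ marker, was listed at 0 in CCR6+RORγt- replicates 1 and 3. The part of other cells in the results was not tested, and in bulk samples fewer cells of a type cannot be told apart from less RNA per cell.

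Tyrosine phosphorylation carries the signal of the T cell receptor, and phosphatases both start and stop it. CD45, the receptor-type phosphatase encoded by Ptprc, removes the inhibitory phosphate of the kinases Lck and Fyn, whereas the cytoplasmic phosphatases SHP-1, SHP-2 and PTPN22 act on the receptor's signalling chain or on inhibitory receptors. Further downstream, the MAP kinase phosphatases, a branch of the dual-specificity (DUSP) family, remove phosphate from both the threonine and the tyrosine of activated ERK, JNK and p38, and several of them are themselves induced by those kinases as feedback.

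Of the 38 members, 37 did not pass the test between the sorts, and the 5 with the smallest p-values were all lower in RORγt+ Tregs. The phosphatase Ptpn5 was the 1 member that fell, to a mean 0.113 times that of CCR6+RORγt- Tregs. Dusp1, Dusp6, Ptpn11 and Ptpn13 were lower in every RORγt+ library than in any CCR6+RORγt- library without passing the test. By limma with a Benjamini-Hochberg adjusted p under 0.05 over all genes, 0 of 38 members rose, 1 fell and 37 did not pass, where 0.564% of all genes tested were called, 0.320% higher and 0.245% lower. Leaving out RORγt+ replicate 3 gave 3 members, with 1.09% of all genes called, and array weights, which count uneven libraries less, gave 4 members, with 2.25% called. Leaving out any other single library gave 0 members, with 0.0251% to 0.0627% of all genes called. At an unadjusted p under 0.05 there were 2 members higher and 7 lower, 23.7% of the members against 10.9% of all genes tested (4.80% higher, 6.12% lower) and 11.5% of the 12782 genes with a mean of at least 10. The groups did not overlap in 11 members, 2 higher and 9 lower, or 28.9%. Over all genes tested that share was 18.1% (8.31% higher, 9.81% lower), and 19.0% among genes with a mean of at least 10. The log2 fold change lay below 0 in 29 of 38 members, or 76.3% against 51.2% of all genes tested, with a median of −0.135 against −0.0109 over all genes tested. With library totals scaled to be equal, 24 of 38 lay below 0, and without RORγt+ replicate 1 the number was 23, with a median of −0.0618. The median of the members stayed below that of all genes in each of the 13 alternative settings.

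**Figure D1:**
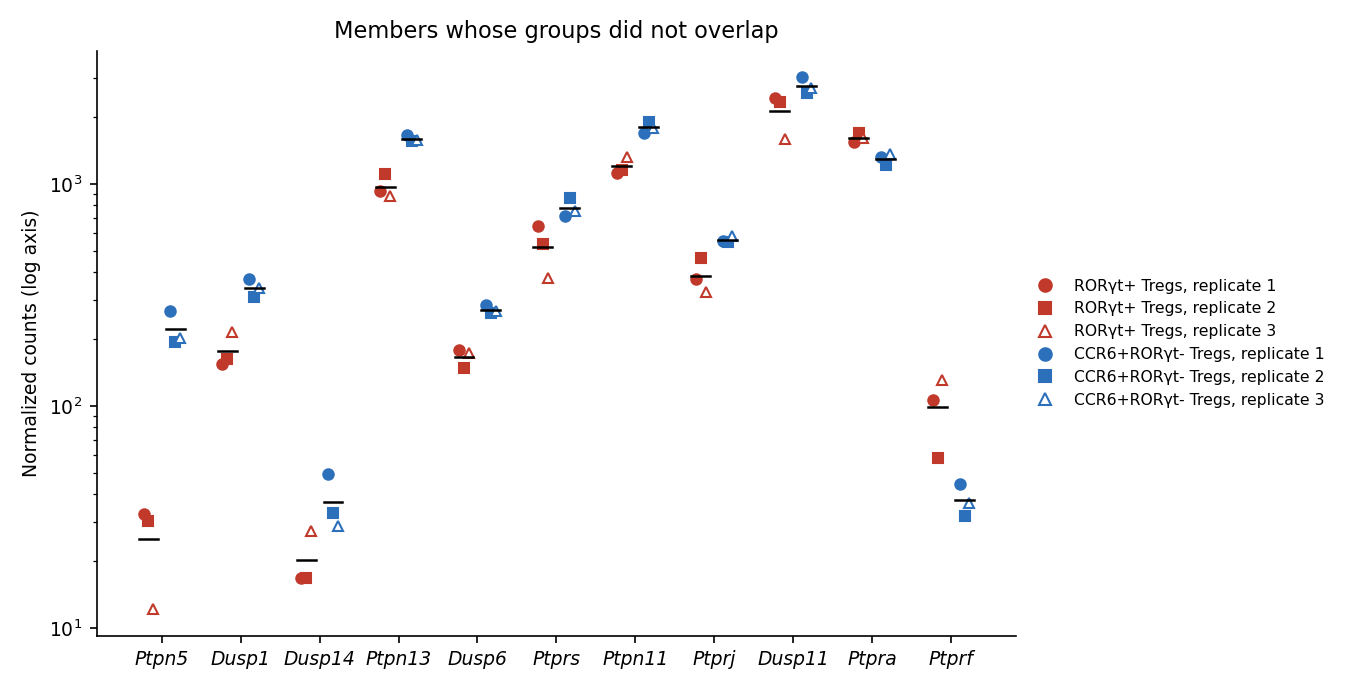
Normalized counts (log axis) of the 11 members whose groups did not overlap, with RORγt+ Tregs in red left of CCR6+RORγt- Tregs in blue, marker shapes for replicates 1 to 3 and black bars for group means. Ptpn5 has the widest gap, at 12.2 to 32.8 in RORγt+ Tregs and 195 to 268 in CCR6+RORγt- Tregs, and only Ptpra and Ptprf lie higher in RORγt+ Tregs.

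The 8 MAP kinase phosphatases among the members had a median log2 fold change of −0.272, and none passed the test over all genes. Dusp1 encodes MKP-1, a nuclear phosphatase of p38, JNK and ERK that is transcribed as an immediate early gene (chromosome 17, GRCm38, minus strand, with its RefSeq start at 26508472). It had 154, 162 and 214 normalized counts in RORγt+ Tregs, against 373, 310.4 and 339 in CCR6+RORγt- Tregs. Every RORγt+ library was lower than every CCR6+RORγt- library, with replicate 3 the highest of the RORγt+ group. Its log2 fold change was −0.95 ± 0.19 (SE, limma adjusted p = 0.110). Leaving out RORγt+ replicate 3 gave −1.10 ± 0.14 (adjusted p = 0.0329). Across the alternatives its adjusted p ran between 0.0149 and 0.440.

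Dusp6 encodes MKP-3, a cytoplasmic phosphatase selective for ERK (chromosome 10, 99263231 to 99267489, GRCm38, plus strand). Its values were 179.6, 148 and 174 normalized counts in RORγt+ Tregs, against 284, 262 and 268 in CCR6+RORγt- Tregs. Each group kept within a narrow range and the groups did not overlap, yet the log2 fold change of −0.70 ± 0.17 (SE) did not pass (limma adjusted p = 0.176, or 0.0901 with RORγt+ replicate 3 left out). Dusp16, which encodes MKP-7, a phosphatase of JNK and p38, had a fold change of similar size on the log2 scale, −0.77 ± 0.44 (SE), but its groups overlapped. It had 41.6, 45.3 and 73.7 normalized counts in RORγt+ Tregs, against 81.0, 161 and 53.7 in CCR6+RORγt- Tregs (limma adjusted p = 0.619).

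Dusp5, a nuclear phosphatase specific for ERK, pointed the other way. It averaged 671 ± 126 normalized counts in RORγt+ Tregs and 528 ± 56.3 in CCR6+RORγt- Tregs (SD, n = 3 each), with a log2 fold change of 0.33 ± 0.18 (SE, limma adjusted p = 0.590), and 21.2% of its 31-base sequence windows also occur in an antisense gene model. Dusp2, a nuclear phosphatase known from activated T cells as PAC-1, had the highest level of the group per kilobase of the longest coding transcript, at 441 in RORγt+ Tregs and 453 in CCR6+RORγt- Tregs. Its normalized counts stood at 713 ± 162 in RORγt+ Tregs and 733 ± 64.1 in CCR6+RORγt- Tregs. Dusp4, Dusp7 and Dusp10 had log2 fold changes of −0.32, −0.14 and −0.22 with overlapping groups. Dusp4 was nearly constant in CCR6+RORγt- Tregs, at 227, 225 and 222 normalized counts, while RORγt+ Tregs had 232, 214 and 116, the low value being that of replicate 3. Without that library the log2 fold changes of Dusp4, Dusp5 and Dusp2 were −0.011, 0.20 and −0.24, and those of Dusp7 and Dusp10 were −0.25 and −0.28.

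**Figure D2:**
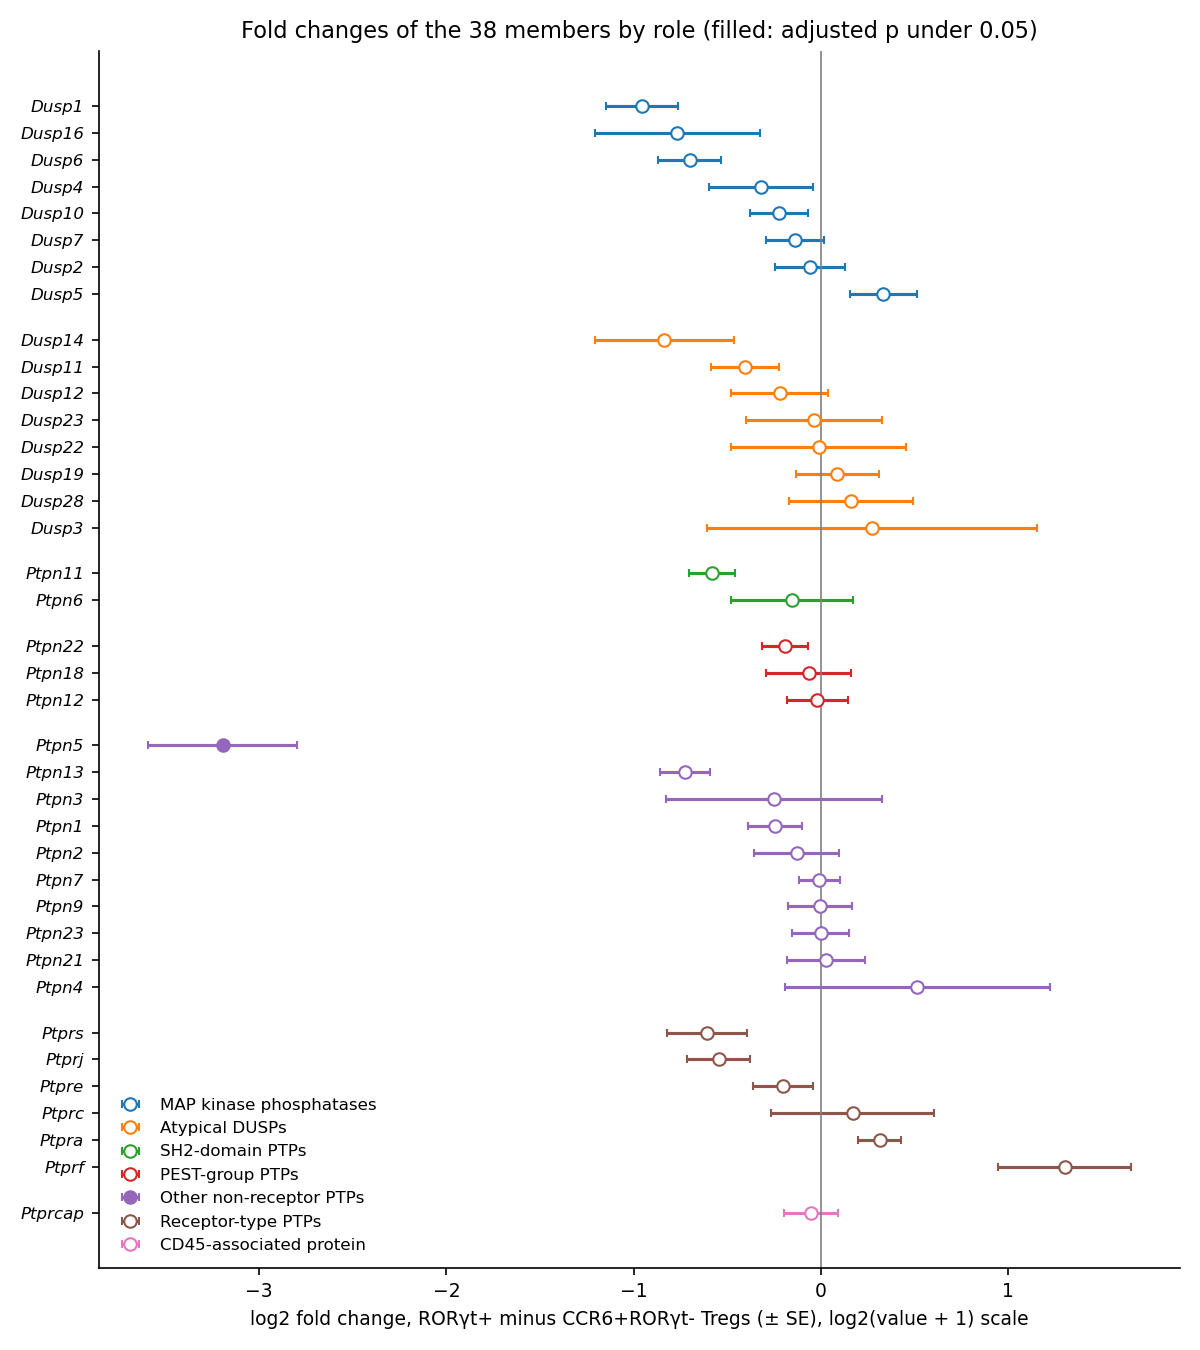
Log2 fold change on the log2(value + 1) scale, RORγt+ minus CCR6+RORγt- Tregs, with SE bars, for the 38 members grouped by role and sorted within each group. Ptpn5 at −3.19 is the only filled point (adjusted p under 0.05), and all other members lie between −0.95 and 1.30.

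The 8 atypical dual-specificity phosphatases, smaller enzymes that lack the MAP kinase-binding domain, had a median log2 fold change of −0.0249 and none passed. Dusp14, which encodes MKP6, an inhibitor of T cell receptor signalling, had 16.9, 16.7 and 27.4 normalized counts in RORγt+ Tregs, against 49.4, 32.9 and 28.8 in CCR6+RORγt- Tregs. The gap between the nearest libraries was small, and the log2 fold change of −0.84 ± 0.37 (SE) had a limma adjusted p of 0.481. Dusp11 encodes a phosphatase that acts on the 5′ ends of RNA. It had 2425, 2348 and 1588 normalized counts in RORγt+ Tregs, against 3019.97, 2574 and 2705 in CCR6+RORγt- Tregs. Its groups did not overlap (log2 fold change −0.41 ± 0.18, SE, limma adjusted p = 0.486, or −0.21 with RORγt+ replicate 3 left out). Dusp12 and Dusp28 had log2 fold changes of −0.22 and 0.16, and the sign of Dusp28 turned without RORγt+ replicate 3 (−0.11). Of the Dusp12 windows 45.9% also occur in antisense gene models, so its counts are uncertain. Dusp22, known as JKAP, which acts on Lck, ranged between 59.2 and 150 normalized counts in RORγt+ Tregs and between 50.65 and 122 in CCR6+RORγt- Tregs, with a log2 fold change of −0.013, which was −0.46 with RORγt+ replicate 3 left out. Dusp19 and Dusp23 had log2 fold changes of 0.088 and −0.037, and 0.032 and −0.37 with that library left out.

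Dusp3, known as VHR, was the member nearest to the mean of 10, at a mean of 20.5 normalized counts. It was uneven in both groups, at 7.66, 55.7 and 9.05 in RORγt+ Tregs, against 34.7, 8.99 and 6.85 in CCR6+RORγt- Tregs. The 6 rows with matching symbols below that mean were Ptprd, Ptprn, Dusp9, Ptpn14, Ptprk and Dusp18, with means between 2.12 and 5.82 normalized counts, and the nearest of them was Dusp18.

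Among the SH2-domain phosphatases, which bind phosphorylated tyrosines of inhibitory receptors and adaptors, Ptpn11 and Ptpn6 differed in how steady they were. Ptpn11, which encodes SHP-2, a phosphatase needed for full activation of the RAS and ERK pathway (chromosome 5, 121130533 to 121191397, GRCm38, minus strand), had 1119.6, 1161 and 1322 normalized counts in RORγt+ Tregs, against 1694, 1903 and 1789 in CCR6+RORγt- Tregs. The groups did not overlap, and the lowest CCR6+RORγt- library stood well above the highest RORγt+ library. The log2 fold change was −0.58 ± 0.12 (SE, limma adjusted p = 0.128). Leaving out RORγt+ replicate 3 gave −0.65 ± 0.09 (adjusted p = 0.0395), and over all alternatives the adjusted p ran between 0.0186 and 0.517. Ptpn6, which encodes SHP-1, had 2639.7, 2075 and 3988 normalized counts in RORγt+ Tregs, against 3623, 2014 and 4137 in CCR6+RORγt- Tregs. Replicate 2 was the lowest of both groups, and the log2 fold change of −0.16 ± 0.33 (SE, limma adjusted p = 0.931) turned positive when RORγt+ replicate 2 (0.059) or CCR6+RORγt- replicate 3 (0.049) was left out, and was −0.41 when RORγt+ replicate 3 was.

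None of the 3 PEST-group phosphatases passed the test. Ptpn22, whose product works with the kinase Csk against Lck, averaged 1786 ± 71.8 normalized counts in RORγt+ Tregs and 2047 ± 193 in CCR6+RORγt- Tregs (SD, n = 3 each, log2 fold change −0.19 ± 0.12, SE, limma adjusted p = 0.654). Ptpn12 stood at 481 ± 67.9 in RORγt+ Tregs and 486 ± 40.0 in CCR6+RORγt- Tregs. Ptpn18 had 1599, 1788 and 2950.2 normalized counts in RORγt+ Tregs, against 2056, 2233 and 2108 in CCR6+RORγt- Tregs, so that RORγt+ replicate 3 was the highest library of all. The log2 fold change was −0.066 ± 0.23 (SE, limma adjusted p = 0.964), and −0.33 ± 0.09 (adjusted p = 0.163) when that library was left out.

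The remaining non-receptor phosphatases held the member with the largest difference. Ptpn5 encodes STEP, a phosphatase best known in neurons, where it acts on ERK, p38 and Fyn (chromosome 7, 47077795 to 47133684, GRCm38, minus strand). It had 32.8, 30.3 and 12.2 normalized counts in RORγt+ Tregs, against 268, 195 and 201 in CCR6+RORγt- Tregs. All RORγt+ libraries were far below all CCR6+RORγt- libraries, the lowest being RORγt+ replicate 3. The means were 25.1 ± 11.2 in RORγt+ Tregs and 222 ± 40.7 in CCR6+RORγt- Tregs (SD, n = 3 each), and Ptpn5 fell with a log2 fold change of −3.19 ± 0.40 (SE, limma adjusted p = 0.0219). Without RORγt+ replicate 3 the difference was −2.76 ± 0.22 (adjusted p = 0.0106). Ptpn5 no longer passed when RORγt+ replicate 1 was left out (adjusted p = 0.0631), RORγt+ replicate 2 (0.0834) or CCR6+RORγt- replicate 1, 2 or 3 (0.160, 0.143 and 0.133). Each of those fits called only 4 to 10 genes over all genes, against 90 with all libraries. The log2 fold change of Ptpn5 stayed between −3.44 and −2.76 with any 1 library left out. Only 0.613% of its sequence windows occur in transcripts of other genes.

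Ptpn7 encodes HePTP, the haematopoietic relative of Ptpn5, which binds ERK and p38 through the same kind of kinase interaction motif. In contrast to Ptpn5 it was abundant and even, at 3306, 3620.04 and 3445 normalized counts in RORγt+ Tregs, against 3668, 3547 and 3225 in CCR6+RORγt- Tregs. The groups overlapped, and the log2 fold change was −0.0086 ± 0.11 (SE, limma adjusted p = 0.988). Per kilobase of the longest coding transcript, the level of Ptpn5 was 7.97 in RORγt+ Tregs and 70.5 in CCR6+RORγt- Tregs, and that of Ptpn7 was 1060.0 in RORγt+ Tregs and 1067 in CCR6+RORγt- Tregs, so that Ptpn7 exceeded Ptpn5 in both sorts.

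Ptpn13 encodes PTP-BL, a large phosphatase with a FERM domain and several PDZ domains (chromosome 5, 103425192 to 103598303, GRCm38, plus strand). It had 926, 1106 and 879 normalized counts in RORγt+ Tregs, against 1659, 1553 and 1581 in CCR6+RORγt- Tregs. The groups did not overlap, and the CCR6+RORγt- libraries lay within a narrow band. The log2 fold change of −0.73 ± 0.13 (SE) missed the threshold (limma adjusted p = 0.0785, or 0.0571 with RORγt+ replicate 3 left out). Ptpn1, which encodes PTP1B, averaged 2312 ± 327 and 2727 ± 234 normalized counts in RORγt+ and CCR6+RORγt- Tregs (SD, n = 3 each, log2 fold change −0.24 ± 0.14, SE, limma adjusted p = 0.632). Ptpn2, which encodes TC-PTP, a phosphatase of Janus kinases and STAT factors, Ptpn3, Ptpn9, Ptpn21 and Ptpn23 had log2 fold changes between −0.25 and 0.026 with overlapping groups. With RORγt+ replicate 3 left out, those of Ptpn2 and Ptpn3 were 0.094 and 0.14.

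Promoter sequence is shown for the members that were lower in every RORγt+ library and had the smallest p-values, chosen after their values were seen. RefSeq promoters (GRCm38.p6) were matched for 33 of the 38 members, with 42 promoters among them, and the 250 bases before the transcript start were searched on both strands. The motifs were the cyclic AMP response element (CRE) TGACGTCA, the EGR site GCGNGGGCG, the ETS site CCGGAAG, the AP-1 site TGANTCA, the nuclear receptor half-site AGGTCA, the TATA box TATAAA and the CArG box. Sequences run 5′ to 3′ along the gene's strand, with capitals for the motifs found. Dusp1 (chr17:26508473-26508722, minus strand) holds a CRE at bases 143 to 136 before the start. Ptpn11 (chr5:121191398-121191647, minus strand) holds an ETS site, a CRE at bases 67 to 60 and 3 overlapping EGR sites between bases 38 and 18. Ptpn13 (chr5:103424942-103425191, plus strand) holds an EGR site at bases 57 to 49.
Dusp1: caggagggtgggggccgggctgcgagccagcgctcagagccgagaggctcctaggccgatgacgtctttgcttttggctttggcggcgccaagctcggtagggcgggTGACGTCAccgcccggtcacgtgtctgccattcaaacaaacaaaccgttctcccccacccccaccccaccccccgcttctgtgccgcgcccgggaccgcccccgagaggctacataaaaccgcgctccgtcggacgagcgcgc
Ptpn11: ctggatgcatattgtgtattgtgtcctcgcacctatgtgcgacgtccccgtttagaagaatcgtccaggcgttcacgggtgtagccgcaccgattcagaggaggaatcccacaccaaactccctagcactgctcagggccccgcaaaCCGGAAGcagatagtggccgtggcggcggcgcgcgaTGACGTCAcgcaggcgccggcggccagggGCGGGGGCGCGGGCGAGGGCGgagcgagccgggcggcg
Ptpn13: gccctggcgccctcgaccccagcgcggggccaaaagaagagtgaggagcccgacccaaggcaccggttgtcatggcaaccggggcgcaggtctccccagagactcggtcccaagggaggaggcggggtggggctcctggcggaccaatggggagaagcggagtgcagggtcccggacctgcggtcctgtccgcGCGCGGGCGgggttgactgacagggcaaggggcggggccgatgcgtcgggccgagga
None of these letter strings occurs in the window of Dusp6 or before either RefSeq start of Ptpn5. The window of the upstream Ptpn5 start (chr7:47133685-47133934, minus strand) had a GC content of 48%, and that of the downstream start (chr7:47132599-47132848, minus strand) 66%.
Ptpn5 upstream start: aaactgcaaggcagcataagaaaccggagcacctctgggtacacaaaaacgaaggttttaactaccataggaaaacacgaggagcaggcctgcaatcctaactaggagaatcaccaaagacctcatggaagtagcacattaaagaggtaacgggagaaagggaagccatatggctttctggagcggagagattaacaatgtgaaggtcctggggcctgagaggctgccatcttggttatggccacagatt
Ptpn5 downstream start: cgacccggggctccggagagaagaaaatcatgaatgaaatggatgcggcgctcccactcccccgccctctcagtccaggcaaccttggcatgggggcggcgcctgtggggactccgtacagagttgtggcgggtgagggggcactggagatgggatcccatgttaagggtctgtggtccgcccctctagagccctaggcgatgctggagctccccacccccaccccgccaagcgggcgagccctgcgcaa

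The CRE was found in 2 of the 42 member promoters, those of Dusp1 and Ptpn11, or 4.76%, and in 1.55% of the 32851 promoters in the table. The EGR site was found in 10 member promoters of 10 genes, or 23.8%, against 4.70% of all promoters. Beside Ptpn11 and Ptpn13, those 10 include Dusp16, Ptpn1 and Ptprf, whose log2 fold changes were −0.77, −0.24 and 1.30. The other genes were Dusp2, Dusp22, Dusp23, Ptpn21 and Ptpre, at −0.059, −0.013, −0.037, 0.026 and −0.20. Promoters were not matched for GC content in these shares, and the windows of Ptpn11 and Ptpn13 had 66.8% and 72.4% GC. The part of GC content in the shares was not tested. The nuclear receptor half-site, the core of the element that RORγt binds, was found in 4 member promoters (of Dusp16, Dusp28, Ptpn21 and Ptprs), or 9.52% against 14.0%. The ETS site occurred in 2 member promoters (4.76% against 6.91%), the TATA box in 2 (4.76% against 12.4%), and the AP-1 site and the CArG box in 1 each (2.38% against 6.75% and 1.47%). These matches describe the letters in this window and no binding.

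The 6 receptor-type phosphatases among the members went both ways. Ptpra, whose product activates Src family kinases by removing their inhibitory phosphate, had 1544, 1692 and 1612 normalized counts in RORγt+ Tregs, against 1320.3, 1222 and 1361 in CCR6+RORγt- Tregs. It was higher in every RORγt+ library, by a small margin, with a log2 fold change of 0.31 ± 0.12 (SE, limma adjusted p = 0.382). Ptprf, which encodes LAR, a receptor with cell adhesion domains, had 106, 58.5 and 131 normalized counts in RORγt+ Tregs, against 44.3, 32.1 and 36.7 in CCR6+RORγt- Tregs. The RORγt+ libraries spread widely but lay above all others (log2 fold change 1.30 ± 0.35, SE, limma adjusted p = 0.233).

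Ptprj and Ptprs were lower instead. Ptprj, which encodes CD148, a regulator of Src family kinases in blood cells, had 372, 462 and 326 normalized counts in RORγt+ Tregs, against 550.45, 549 and 581 in CCR6+RORγt- Tregs. The log2 fold change was −0.55 ± 0.17 (SE, limma adjusted p = 0.293), and 11.5% of the Ptprj windows also occur in another gene model. Ptprs, a relative of Ptprf and a receptor for proteoglycans, had 648, 537 and 376 normalized counts in RORγt+ Tregs, against 714, 865 and 754 in CCR6+RORγt- Tregs. Its log2 fold change of −0.61 ± 0.22 (SE, limma adjusted p = 0.365) was −0.39 ± 0.14 without RORγt+ replicate 3. Ptpre, a close relative of Ptpra, stood at 640.4 ± 106 and 731 ± 42.5 in RORγt+ and CCR6+RORγt- Tregs (SD, n = 3 each).

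Ptprc was the most abundant member per length, at 4617 normalized counts per kilobase of its longest coding transcript in RORγt+ Tregs and 3936 in CCR6+RORγt- Tregs. On the same scale Ptprcap came next, at 3725 in RORγt+ Tregs and 3826 in CCR6+RORγt- Tregs, although most of its sequence is shared with other genes. Below it, the levels of Ptpn18 and Ptpn6 were 1355 and 1257 in RORγt+ Tregs, against 1368 and 1411.5 in CCR6+RORγt- Tregs. By the mean over both groups the lowest members per kilobase were Dusp3, Ptprf and Ptpn3, at 5.43, 12.9 and 11.4 in RORγt+ Tregs, against 3.79, 4.93 and 11.8 in CCR6+RORγt- Tregs. Within RORγt+ Tregs, Ptpn5 (7.97) and Dusp16 (10.5) were also below Ptprf and Ptpn3. The transcripts behind the authors' counts are not known, so these levels per length are approximate. Ptprc had 29993, 29217 and 11077 normalized counts in RORγt+ Tregs, against 13008, 18517.5 and 28389 in CCR6+RORγt- Tregs. Libraries of the same group thus differed more than the group means, and Ptprc took between 25.6% and 50.6% of all the members' counts in a library. Its log2 fold change was 0.17 ± 0.43 (SE, limma adjusted p = 0.948). Leaving out RORγt+ replicate 3 gave 0.64 ± 0.30 (adjusted p = 0.328). It turned negative without RORγt+ replicate 1 (−0.077), RORγt+ replicate 2 (−0.058) or CCR6+RORγt- replicate 1 (−0.10). Ptprcap stood at 4030.5 ± 699.8 normalized counts in RORγt+ Tregs and 4140.0 ± 76.7 in CCR6+RORγt- Tregs, and 96.6% of its windows lie in transcripts of Coro1b or other genes and its counts are uncertain.

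Ptpn4, a phosphatase with FERM and PDZ domains, repeated the order of the libraries seen in Ptprc. It had 1145, 1054 and 203 normalized counts in RORγt+ Tregs, against 258, 396 and 822 in CCR6+RORγt- Tregs. In both genes RORγt+ replicate 3 was the lowest library and CCR6+RORγt- replicate 1 the next lowest. The log2 fold change of Ptpn4 was 0.51 ± 0.71 (SE, limma adjusted p = 0.872). Leaving out RORγt+ replicate 3 gave 1.32 ± 0.45 (adjusted p = 0.213). These genes have AT-rich coding transcripts, with a GC content of 42.7% for Ptprc and 38.4% for Ptpn4.

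**Figure D3:**
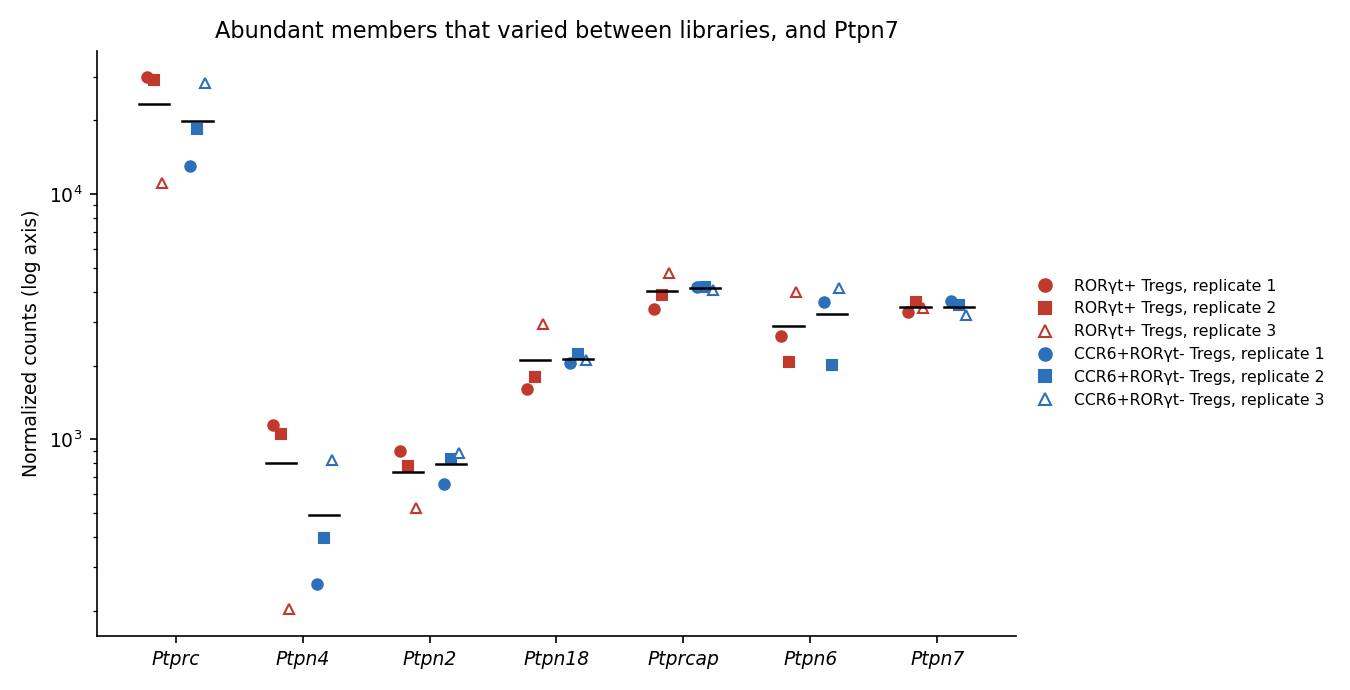
Normalized counts (log axis) of 7 abundant members by library, with RORγt+ Tregs in red left of CCR6+RORγt- Tregs in blue, marker shapes for replicates 1 to 3 and black bars for group means. Ptprc and Ptpn4 are lowest in RORγt+ replicate 3 (11077 and 203), Ptpn18 is highest there (2950.2), and Ptpn7 is even over all 6 libraries.

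Across the 38 members, the shift of RORγt+ replicate 3 from replicates 1 and 2 went with the GC content of the longest coding transcript (Pearson r = 0.464, Spearman rho = 0.433) and with its length (r = −0.549, rho = −0.541). These are descriptions across genes that share the same 3 libraries. Over 12725 genes with a mean of at least 10 the Spearman values were 0.522 for GC and −0.280 for length. Of the 6 members with a GC content under 45%, 5 were lower in replicate 3, with a median shift of −0.630 on the log2 scale, against −0.656 for all genes of that class. Of the 13 members with a GC content of 55% or more, 3 were lower and the median shift was 0.394, against 0.393 for all such genes. Ptpn5 went against its class, with 58.4% GC and a shift of −1.30. Between the log2 fold change of the groups and GC content, rho was −0.0576 over the members. A weaker shift of the same kind was seen in CCR6+RORγt- replicate 1 against replicates 2 and 3 of its group. Its Spearman values were 0.386 for GC and −0.127 for length over the 12725 genes, and 0.278 and −0.221 over the members. The part of these shifts in any result above was not tested, beyond the values given without RORγt+ replicate 3.

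**Figure D4:**
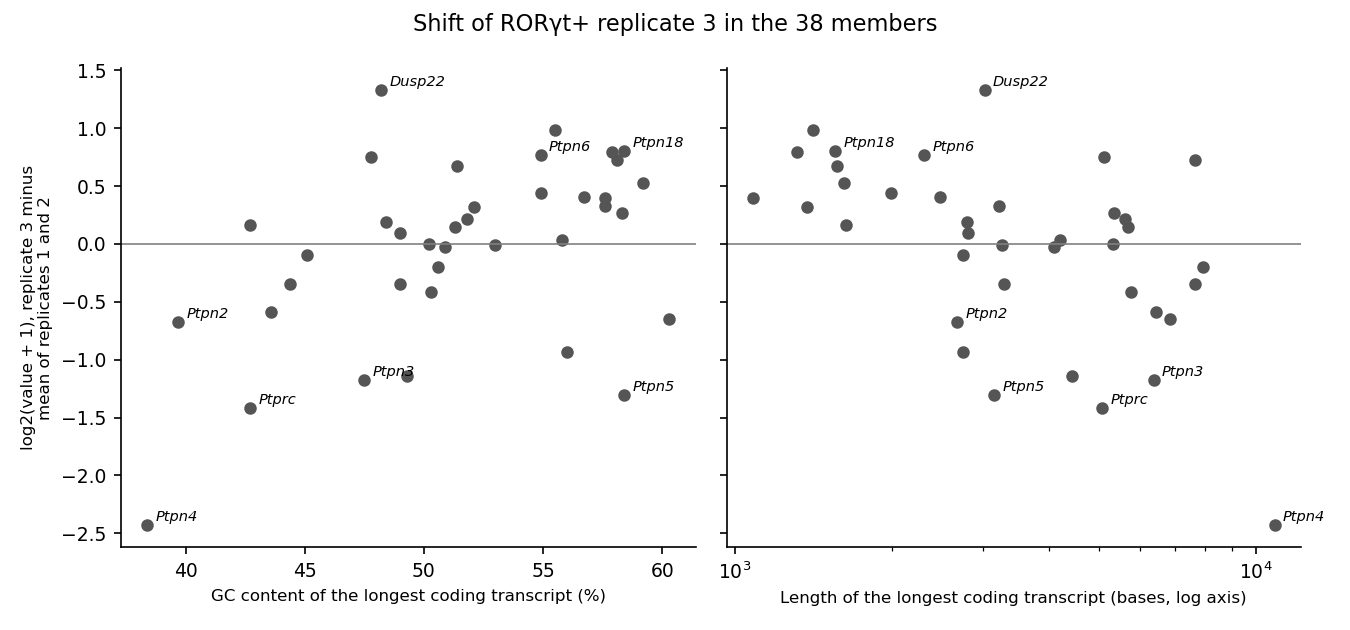
Shift of RORγt+ replicate 3 from the mean of replicates 1 and 2, in log2(value + 1), for the 38 members against GC content (left) and length (right, log axis) of the longest coding transcript, each point being a gene. Ptpn4 lies lowest, and the 13 members with 55% GC or more have a median shift of 0.394.

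Genes on which the phosphatases act, or which work beside them, were read in the same fit. Of 16 measured ERK-induced early genes and Sprouty or Spred inhibitors, 2 fell, none rose and the other 14 missed the threshold, where 0.245% of all genes tested were called lower. Their median log2 fold change was −0.532, and 13 of the 16 lay below 0, against 51.2% of all genes tested. Unlike the members, this list had no filter on the mean. It includes Spred3, Spry2 and Ier3, which lay near the floor, at log2 fold changes of −1.37, 0.94 and 0.075. The early transcription factors Egr2 (211, 233 and 231 normalized counts in RORγt+ Tregs, against 648, 603 and 736 in CCR6+RORγt- Tregs, limma adjusted p = 0.00961) and Egr3 (adjusted p = 0.0329) were the genes that fell. With any 1 library left out, each passed in 1 of 6 fits, the one without RORγt+ replicate 3. The adjusted p reached 0.0865 for Egr2 and 0.207 for Egr3, and the other fits called only 4 to 10 genes each over all genes. Egr1 had 728, 708 and 845 normalized counts in RORγt+ Tregs, against 1172, 1251 and 1118 in CCR6+RORγt- Tregs, and the feedback inhibitor Spry1 had 173, 183 and 193 in RORγt+ Tregs, against 278, 319 and 269 in CCR6+RORγt- Tregs. Neither passed the test (adjusted p = 0.116 and 0.201). Both were named after their values were seen, and, like Dusp1 and Dusp6, both kept their groups apart. In the list 6 of 16 genes were lower in every RORγt+ library, where 9.81% of all genes tested were. Fosb was among the 6 (limma adjusted p = 0.0593), while the groups overlapped in Myc, Fos and Ier2, the last with a log2 fold change of 0.15. The summed counts of this list were 4611 to 5515 in RORγt+ Tregs and 6695 to 6999.7 in CCR6+RORγt- Tregs. Whether the early genes and Dusp1 or Dusp6 share a cause was not tested.

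Of 28 measured genes of the MAP kinase cascade, the kinases on which many of the members act, none passed, with a median log2 fold change of −0.0405. Map3k8, which encodes the ERK pathway kinase TPL2, had the smallest p in that list, at 232 ± 75.3 normalized counts in RORγt+ Tregs and 120.4 ± 24.6 in CCR6+RORγt- Tregs (SD, n = 3 each, log2 fold change 0.90 ± 0.30, SE, limma adjusted p = 0.341). None of 21 proximal T cell receptor kinases and adaptors passed, with a median of −0.0401. The TEC family kinase Txk came nearest, at 790.0 ± 17.2 in RORγt+ Tregs and 529.8 ± 26.7 in CCR6+RORγt- Tregs (0.58 ± 0.12, SE, adjusted p = 0.128). None of the 11 Janus kinases and STAT factors passed either, with a median of −0.0292, and Stat2 came nearest at 1397 ± 37.6 in RORγt+ Tregs and 1111 ± 126 in CCR6+RORγt- Tregs (adjusted p = 0.409).

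A list of receptors and adaptors around SHP-1 and SHP-2, not all of them known to recruit either, held 17 measured genes. Their median log2 fold change was 0.237, and 1 fell, none rose and 16 did not pass. The gene that fell was Pdcd1, which encodes PD-1, a receptor that signals through SHP-2. It had 433, 531 and 588 normalized counts in RORγt+ Tregs, against 1543, 1336 and 1159 in CCR6+RORγt- Tregs (log2 fold change −1.38 ± 0.17, SE, limma adjusted p = 0.0219). With any 1 library left out, Pdcd1 passed in 1 of 6 fits, the one without RORγt+ replicate 3, and its adjusted p reached 0.151. The other fits called only 4 to 10 genes each over all genes. In this list 9 genes were higher in every RORγt+ library and 3 were lower, where 8.31% and 9.81% of all genes tested were. Among the higher ones was Lair1, an inhibitory collagen receptor named after its values were seen, with a log2 fold change of 1.66 ± 0.29 (SE, limma adjusted p = 0.0667).

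**Figure D5:**
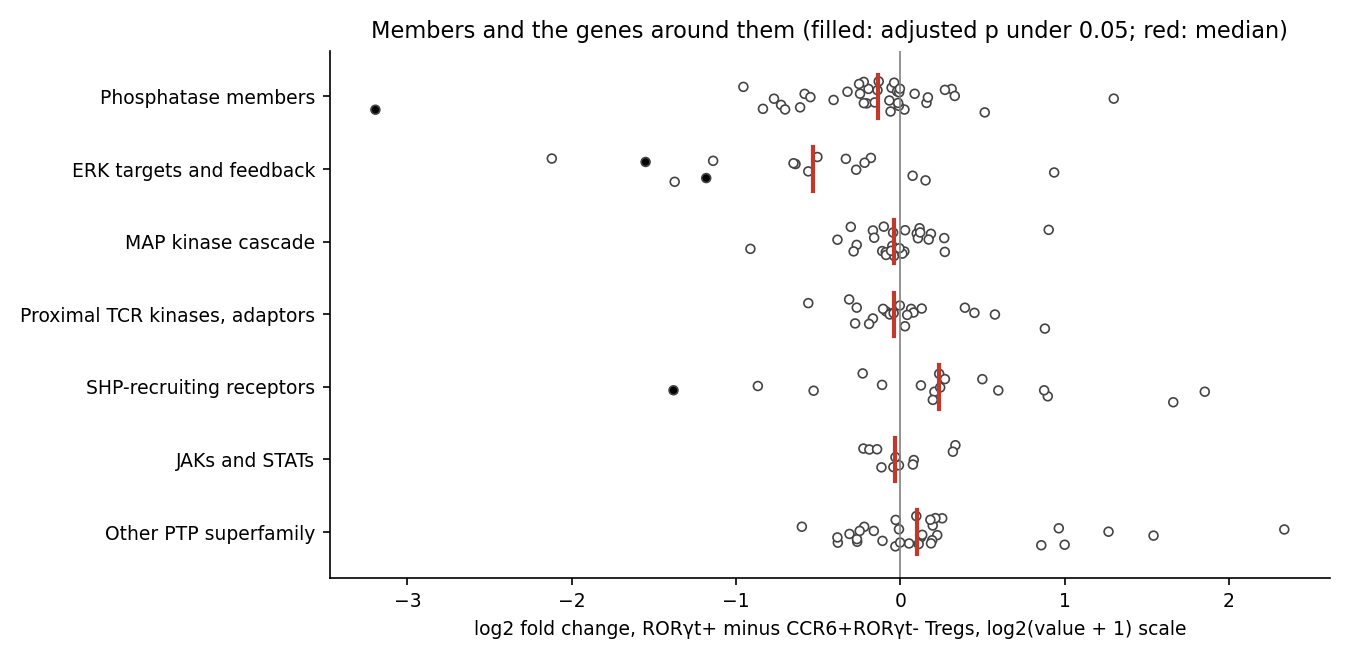
Log2 fold change on the log2(value + 1) scale, RORγt+ minus CCR6+RORγt- Tregs, for the 38 members and 6 lists of genes around them, each point being a gene, filled where the adjusted p is under 0.05, with the median in red. The ERK targets and feedback genes have the lowest median (−0.532), and the MAP kinase cascade lies near 0 (−0.0405).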

How the data were processed

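RNA of 3 RORγt+ and 3 CCR6+RORγt- Treg libraries was analysed. The authors deposited 1 signal value per gene and library, a normalized count with 2 decimals. Per the submitters' processing notes, Salmon 1.2.0, DESeq2 (no version) and GRCm38 were used, with no role stated for each. Each library's median ratio to the geometric means of the genes was 1.003. Of low values, 51.7% to 69.9% came within 0.1 of a whole read, too few to turn the table back into reads for a count test.

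Values were tested as log2(value + 1) over 15944 genes, with no filter, by limma 3.58.1 in R 4.3.3 (trend, two-sided, Benjamini-Hochberg, threshold 0.05), which understates changes of low genes. On simulated data the fit recovered 13 of 100 2-fold and 64 of 100 4-fold changes, with 4 false calls among 81. Members that did not pass may therefore still differ. Positions, lengths and shared 31-base windows came from GENCODE M21 (GRCm38), in which all 38 members were found. List genes were matched by symbol, with no filter on their mean, and of rows with the same symbol the most abundant was used.

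The members and lists were chosen with earlier results of these data known. Named were the members past the threshold, up to 4 with the smallest p and the most abundant per role, those next to the mean of 10, and in each list the genes past the threshold or the 1 nearest to it. Others are said to be chosen later. Replicate numbers were checked as pairs. Alternatives were other pseudocounts, scalings, a mean filter, array weights, a replicate block and each library left out.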

Additional observations from a re-analysis of the deposited data

How the results depend on the processing

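The 90 genes called over all genes (51 higher, 39 lower) became 84 to 103 with other pseudocounts, scalings or a mean of at least 10, and the members called stayed at 1, Ptpn5, in those settings. Array weights, which gave RORγt+ replicate 3 a weight of 0.199, called 358 genes (170 higher, 188 lower) and 4 members, with Dusp1, Ptpn11 and Ptpn13 beside Ptpn5. The cause was not tested. Dropping any 1 library gave 4 to 174 genes (1 to 85 higher, 0 to 89 lower) and 0 to 3 members. The highest counts came without RORγt+ replicate 3, where Dusp1, Ptpn11 and Ptpn5 passed. Under a replicate block, 1 gene (1 higher, 0 lower) and 0 members passed, with an adjusted p of 0.109 for Ptpn5, 0.139 for Egr2, 0.208 for Egr3 and 0.197 for Pdcd1. For libraries of the same number, the deviations from the group means correlated at −0.105, −0.022 and −0.184, and 0 of 6 libraries correlated best with their own number, so the numbers were not taken as pairs.

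Some signs turned, in members that did not pass. With library totals scaled to be equal 5 turned, Ptpn12 (0.0096), Ptpn7 (0.020), Dusp22, Ptpn9 and Ptpn23. With array weights 5 turned, Ptpn12 (0.090), Dusp28 (−0.085), Ptpn2, Ptpn3 and Ptpn9, and with upper-quartile scaling 1, Ptpn21. With 1 library left out, 3 to 8 members turned. Among the members named by rule, the log2 fold change lay between −0.24 and 0.069 for Dusp2, −0.11 and 0.32 for Dusp28, −0.60 and 0.94 for Dusp3, −0.47 and 0.059 for Ptpn6, −0.33 and 0.11 for Ptpn18, −0.11 and 0.096 for Ptpn12, −0.062 and 0.030 for Ptpn7, −0.10 and 0.64 for Ptprc, and −0.18 and 0.061 for Ptprcap. The median of all genes moved most with upper-quartile scaling, by −0.0458.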

Other observations

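Outside the symbol rule, 32 tyrosine phosphatases and relatives were measured, such as the CDC25, PRL, slingshot and myotubularin families. None passed the test by limma over all genes, and their median log2 fold change was 0.105. At an unadjusted p under 0.05 by limma there were 3 higher and 1 lower, against 4.80% and 6.12% of all genes tested. Of the 3 higher, Cdc25c was near the floor, at means of 9.62 normalized counts in RORγt+ Tregs and 0.887 in CCR6+RORγt- Tregs. Cdc25b, a cell cycle phosphatase that activates cyclin-dependent kinases, had 1543, 1567 and 1106 normalized counts in RORγt+ Tregs, against 605, 779 and 761 in CCR6+RORγt- Tregs (log2 fold change 0.97 ± 0.18, SE, limma adjusted p = 0.0914). All RORγt+ libraries were above all CCR6+RORγt- libraries. Cdc14b and Ssh1, chosen after their values were seen, kept their groups apart as well, Cdc14b at 334, 309 and 147 normalized counts in RORγt+ Tregs and 103, 126 and 144 in CCR6+RORγt- Tregs, and Ssh1, a cofilin phosphatase, at 1205 ± 75.5 in RORγt+ Tregs and 1492 ± 30.8 in CCR6+RORγt- Tregs (SD, n = 3 each).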
